A study of Mus musculus with 6 samples.

Results

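The genes described here are 10 that govern the G1 phase of the cell cycle, out of 53458 genes measured: the D cyclins Ccnd1, Ccnd2 and Ccnd3, the E cyclins Ccne1 and Ccne2, the kinases Cdk2, Cdk4 and Cdk6, and the inhibitors Cdkn1b and Cdkn2c. They were chosen by name, with earlier results of these data known. They were followed in RNA sequencing of mouse acute myeloid leukemia blasts that carried Asxl1 G643W on both alleles (Cebpa-/p30; Asxl1G643W/G643W, 3 libraries, called G643W) or wild-type Asxl1 (Cebpa-/p30; Asxl1WT, 3 libraries, called WT). Both groups share the Cebpa-/p30 genotype, in which one allele of the myeloid transcription factor gene Cebpa is lost and the other makes only the short p30 form, and both are on the C57/BL6 strain. The blasts came from the bone marrow of transplanted leukemic mice and were sorted as CD45.2+ cells without Ter119, B220 or CD3 and with low Mac1 and Gr1. The labels do not give the age of the mice or say which libraries trace to separate primary leukemias, and the p-values therefore speak of the spread among these 6 libraries, which may be partly technical.

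In G1, mitogens raise the D cyclins, which bind Cdk4 and Cdk6 and start the phosphorylation of the retinoblastoma protein. Cyclin E with Cdk2 completes it, E2F factors are released and S phase genes are switched on. Cdkn1b (p27Kip1) holds cyclin E with Cdk2 in check, and Cdkn2c (p18Ink4c) binds Cdk4 and Cdk6 and keeps the D cyclins off them. In myeloid cells, leaving the cycle accompanies maturation, and the p30 form of Cebpa is known for losing part of the growth arrest that full-length C/EBPα brings.

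No member passed the test between the genotypes, and the members split evenly in direction, 5 with a positive and 5 with a negative log2 difference (G643W minus WT), and 7 changed sign in at least 1 of 17 alternative analyses. The lowest adjusted p among the 10 was 0.498 (edgeR's quasi-likelihood test, Benjamini-Hochberg over 20654 genes), against 0.121% of genes called across the whole table, that is 25 genes. The member with the lowest p was Ccnd1, which was lower in all 3 G643W libraries than in any WT library, with an unadjusted p of 0.0329. The spread between libraries of the same genotype was wide: the biological coefficient of variation over all genes was 52.8%. The 95% interval of the difference lay within a log2 difference of 1 in either direction for 2 members alone, Ccne1 and Cdkn1b.

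Promoter sequences bear on members that move together or have several starts, and 4 windows are printed because the results return to them. RefSeq windows on GRCm38.p6, from 250 bases before to 50 bases after a start, were at hand for 7 of the 10 members, 9 windows in all, and are written 5′ to 3′ along the gene. The E2F motif (TTTCCCGC, TTTGGCGC, TTTCGCGC or TTTGCCGC on either strand), the C/EBP motif TTGCGNAA and the E-box CACGTG, which Myc and its partner Max bind, were searched on both strands, and the E-box was added after values had been seen. Capitals mark an E2F motif in the Cdk2 window (chr10:128705002-128705301, minus strand) and E-boxes in the Cdk4 window (chr10:127063285-127063584, plus strand) and in the first of the Cdkn2c windows (chr4:109665323-109665622, minus strand). The second Cdkn2c window (chr4:109666707-109667006, minus strand) holds none of the motifs and is shown because the gene has a pair of starts.
Cdk2: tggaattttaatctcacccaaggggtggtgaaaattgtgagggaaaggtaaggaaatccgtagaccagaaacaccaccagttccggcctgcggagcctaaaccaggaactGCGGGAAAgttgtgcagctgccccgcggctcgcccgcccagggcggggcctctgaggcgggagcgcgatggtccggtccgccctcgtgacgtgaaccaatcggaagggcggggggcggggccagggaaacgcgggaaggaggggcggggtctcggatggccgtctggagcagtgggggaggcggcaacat
Cdk4: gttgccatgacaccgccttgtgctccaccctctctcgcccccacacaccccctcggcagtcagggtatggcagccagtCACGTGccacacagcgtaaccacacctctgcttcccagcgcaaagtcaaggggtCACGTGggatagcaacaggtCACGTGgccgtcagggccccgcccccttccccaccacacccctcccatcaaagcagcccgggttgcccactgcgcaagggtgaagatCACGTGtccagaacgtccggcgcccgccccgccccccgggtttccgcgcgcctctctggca
Cdkn2c inner start: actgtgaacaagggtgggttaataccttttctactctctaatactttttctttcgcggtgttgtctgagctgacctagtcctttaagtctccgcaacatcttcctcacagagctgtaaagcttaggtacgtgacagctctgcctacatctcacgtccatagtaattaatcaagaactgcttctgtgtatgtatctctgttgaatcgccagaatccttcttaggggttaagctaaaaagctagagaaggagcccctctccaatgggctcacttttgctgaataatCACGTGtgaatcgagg
Cdkn2c outer start: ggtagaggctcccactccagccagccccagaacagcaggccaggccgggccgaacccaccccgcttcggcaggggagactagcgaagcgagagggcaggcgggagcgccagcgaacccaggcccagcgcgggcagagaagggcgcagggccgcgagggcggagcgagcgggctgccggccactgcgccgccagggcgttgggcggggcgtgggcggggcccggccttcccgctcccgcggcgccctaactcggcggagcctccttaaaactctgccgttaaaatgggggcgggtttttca
The Cdk4 window holds 4 E-boxes, which begin 172, 118, 98 and 11 bases before the start. At least 4 were found in 8 of 32851 windows of the same length (0.0244%), and at least 1 in 7.15%. Cdk6 has 1 E-box, 220 bases before its start, and the inner Cdkn2c window has 1 that begins 34 bases after the start. The E2F motif of Cdk2 begins 140 bases before the start, and 2.26% of all windows hold one. None of the 9 windows holds the C/EBP motif, found in 0.798% of all windows. A match of letters is a description of the window and not a measured binding site.

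The whole series was checked as follows. Libraries held between 61167075 and 101189225 estimated reads. Asxl1 had 103, 164 and 147 CPM (read counts scaled by TMM to a common library total) in G643W libraries 1 to 3, against 86.5, 54.5 and 73.8 CPM in WT libraries 1 to 3. It was higher in every G643W library, with a log2 difference of 0.95 (unadjusted p 0.00950, adjusted p 0.454 by edgeR), and these levels do not show which allele a library carries. Reads of Cd3e, a defining marker of the T cells that the sort removed, were near 0, with at most 18.1 estimated reads in any library. Other T cell markers were not all near 0. The summed TPM (Salmon's measure of level per transcript length) of 8 T cell markers was 2.65, 11.7 and 13.1 in G643W libraries 1 to 3. It was 3.77, 1.57 and 11.1 in WT libraries 1 to 3, mostly from Cd3d and Cd4. Markers of neutrophils, which the gate of low Gr1 should limit, were present in every library. Their summed levels were 38526.6, 217714 and 139400 TPM in G643W and 44416.4, 41103.7 and 91500.2 TPM in WT. Chil3, the one marker of the list with a negative log2 difference, made up much of the lower sums, and without it they were 16176, 185083 and 114437 TPM in G643W and 2679, 13511 and 78812 TPM in WT.

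**Figure D1:**
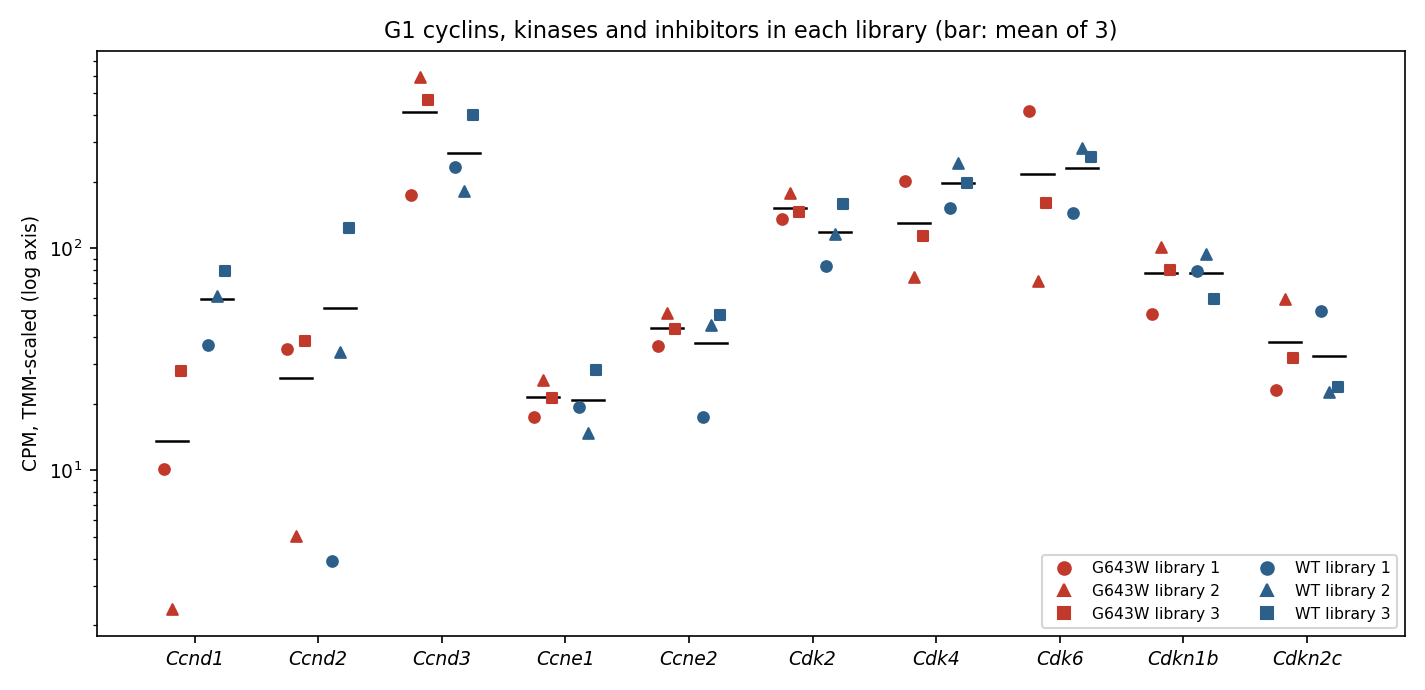
Level of each of the 10 genes in each library, in TMM-scaled CPM on a log axis, with G643W libraries on the left of each pair in red and WT libraries on the right in blue. Black bars are means of 3 libraries. Ccnd1 is the one gene whose G643W points all lie below its WT points, and Ccnd2 ranges from 3.90 to 124 CPM within WT.

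The D cyclins are the mitogen-driven partners of Cdk4 and Cdk6. Ccnd1 (chr7:144929931-144939925, minus strand) had 10.2, 2.37 and 28.1 CPM in G643W libraries 1 to 3, against 36.8, 60.8 and 79.0 CPM in WT libraries 1 to 3. Every G643W library was below every WT library, which 8.89% of all genes also showed (1837 genes), and 1 of the 10 members did. The means were 13.5 ± 13.2 CPM in G643W and 58.9 ± 21.2 CPM in WT (SD, n = 3 each). The log2 difference was -2.12 (SE 0.80, 95% interval -4.01 to -0.23), with an adjusted p of 0.498 by edgeR. It was negative in all 17 alternative analyses, from -3.24 without G643W library 3, the highest of the mutant libraries, to -1.62 without G643W library 2, the lowest. The unadjusted p by edgeR was above 0.05 without G643W library 1 (0.0935), WT library 2 (0.0742) or WT library 3 (0.0895), and with length-scaled counts (0.0695). Markers of other cells also had lower list means in G643W. The mean relative log2 CPM of 8 dendritic cell markers was -0.95, -1.42 and -1.01 in G643W libraries 1 to 3, against 1.54, 1.41 and 0.43 in WT libraries 1 to 3. Of the 8, 5 were lower in every G643W library than in any WT library. Of 10 monocyte markers 5 were lower in this way, with a list mean of -0.13, -1.78 and -0.35 in G643W, against 1.09, 0.89 and 0.28 in WT. Within G643W, both list means and Ccnd1 were lowest in library 2. Within WT, both list means fell from library 1 to library 3, while Ccnd1 rose. The summed level of the dendritic cell markers was 12.2 to 49.7 TPM in G643W, against 57.2 to 256 TPM in WT. Much of it was Bst2, with 7.36 to 44.6 TPM in G643W, against 38.6 to 227 TPM in WT. The summed level of the monocyte markers was 2677 to 3630 TPM in G643W, against 2288 to 4145 TPM in WT. Most of it was Ly6c2, the one marker of that list with a positive log2 difference. Ly6c2 had 2577 to 3253 TPM in G643W, against 1569 to 3727 TPM in WT. No marker of either list passed the test, and their part in the Ccnd1 difference was not tested. Ccnd1 overlaps LTO1 on the opposite strand, which had 974 to 2226 reads in the libraries, and since no source used here says whether counting used strand, reads of the shared end cannot be told apart.

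Ccnd2 (chr6:127125162-127152193, minus strand) was the least steady member. It had 35.2, 5.05 and 38.2 CPM in G643W libraries 1 to 3, against 3.90, 34.0 and 124 CPM in WT libraries 1 to 3. The groups overlapped fully, and WT held both the lowest and the highest library, a 31.6-fold range. Its spread within genotypes, an SD of 2.13 on the log2 scale, was at the 97.1 percentile of all genes tested. Its log2 difference was -1.04 (SE 1.15, adjusted p 0.728 by edgeR), and it changed to 0.52 when WT library 3 was left out.

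Ccnd3 (chr17:47505051-47599691, plus strand), the D cyclin with the highest RNA level in these blasts, had 174, 589 and 467 CPM in G643W libraries 1 to 3, against 232, 181 and 397 CPM in WT libraries 1 to 3. G643W libraries 2 and 3 were the highest of the 6 and G643W library 1 the lowest. With a log2 difference of 0.60 (SE 0.50, 95% interval -0.57 to 1.78, adjusted p 0.650 by edgeR) it did not pass the test, and with the mean level of the neutrophil markers as a covariate the difference was -0.08. Leaving out 1 library gave 0.25 without G643W library 2, 1.05 without G643W library 1 and 1.08 without WT library 3. A pseudogene, Ccnd3-ps, is 96.3% identical to the main transcript over 881 bases, but at most 12.5 reads were assigned to it in any library.

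Per length, Ccnd3 made up most of the D cyclin RNA in every library. The share was computed from the TPM of each gene's main transcript, the one with the most reads (Ccnd1-201, Ccnd2-201 and Ccnd3-205). Ccnd3 took 89.6%, 99.4% and 93.4% in G643W libraries 1 to 3, against 89.9%, 77.7% and 80.1% in WT libraries 1 to 3. Ccnd1 took 3.56%, 0.27% and 3.63% in G643W, against 9.47%, 16.8% and 10.2% in WT. The Ccnd1 share thus did not overlap between the genotypes, as its level did not, and the Ccnd3 shares overlapped. Ccnd2 held between 0.34% and 9.76% in any library.

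**Figure D2:**
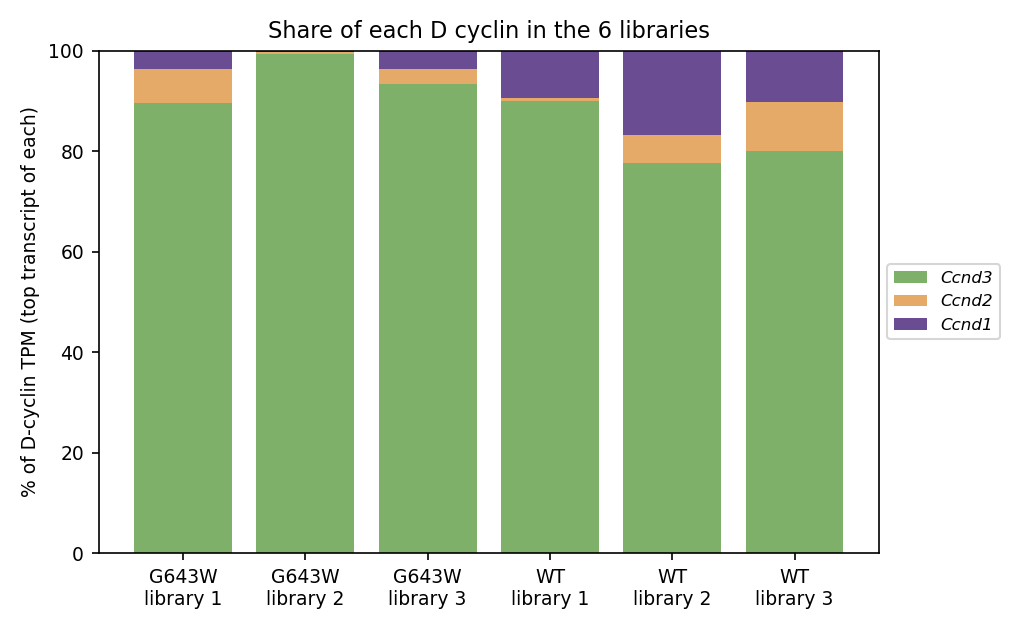
Share of each D cyclin in the summed TPM of the main transcripts of Ccnd1, Ccnd2 and Ccnd3, in percent, one bar per library with G643W on the left. Ccnd3 holds at least 77.7% in each library, and the Ccnd1 part is smaller in the 3 G643W bars (at most 3.63%) than in the 3 WT bars (at least 9.47%).

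The summed TPM of a gene was misleading for Ccnd2. Its 115-base transcript Ccnd2-205 was given 17.8, 0 and 7.59 TPM in G643W libraries and 2.47, 0 and 25.6 TPM in WT libraries. These levels stand on 9.72, 0 and 4.61 estimated reads in G643W and 1.63, 0 and 16.7 in WT, because so short a transcript has almost no effective length. The main transcript, Ccnd2-201 of 6330 bases, had 2.79, 0.37 and 3.02 TPM in G643W, against 0.30, 2.26 and 9.68 TPM in WT. The 336-base Ccnd3-219 similarly carried 89.6 to 226 TPM in G643W and 64.5 to 159 TPM in WT, more than the main transcript of that gene in every library.

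By main transcript, the order of the mean levels over the 6 libraries ran Ccnd3 (66.0 TPM), Cdk4 (19.5 TPM), Cdk2 (15.1 TPM), Cdk6 (10.3 TPM), Ccne2 (8.72 TPM), Ccne1 (4.98 TPM), Cdkn1b (4.77 TPM), Ccnd1 (4.53 TPM), Cdkn2c (4.50 TPM) and Ccnd2 (3.07 TPM). Ccnd3, at 32.3 to 108 TPM, lay above every value of Cdk4 (7.77 to 26.4 TPM). Below it, each gene overlapped with its neighbours in the order. A main transcript holds only part of a gene's reads, least for Cdk4 (16.3% to 22.4%). It need not have the highest TPM of its gene, as Cdkn2c-202 did not in any library. With all transcripts summed, the first 3 places were the same, with Ccnd3 at 311 TPM, Cdk4 at 165 TPM and Cdk2 at 38.6 TPM, but Ccnd2 stood above Cdk6 with 15.3 TPM, mostly from Ccnd2-205, and Ccnd1 was last with 6.54 TPM.

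The E cyclins, which activate Cdk2 late in G1, overlapped between the genotypes. Ccne1 (chr7:38097984-38107534, minus strand) had 17.5, 25.5 and 21.2 CPM in G643W libraries 1 to 3, against 19.3, 14.7 and 28.4 CPM in WT libraries 1 to 3. All G643W values lay inside the WT range. Ccne1 had a log2 difference of 0.04 (95% interval -0.69 to 0.77, adjusted p 0.962 by edgeR), so changes of more than 0.77 in either direction fall outside the interval. Ccne2 (chr4:11191351-11204779, plus strand) had 36.5, 51.3 and 43.3 CPM in G643W, against 17.4, 45.0 and 50.2 CPM in WT. WT library 1 stood below the other libraries, and the log2 difference was 0.22 (95% interval -0.71 to 1.15, adjusted p 0.837 by edgeR), or -0.13 without it. Ccne2 shares its end with Ints8 on the opposite strand.

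Among the kinases, Cdk2 (chr10:128697939-128705031, minus strand), the partner of the E cyclins, was the steadiest member. It had 135, 177 and 145 CPM in G643W libraries 1 to 3, against 82.8, 117 and 158 CPM in WT libraries 1 to 3. The groups overlapped through WT library 3, the log2 difference was 0.36 (95% interval -0.30 to 1.01, adjusted p 0.635 by edgeR), and its sign was the same in all 17 alternatives. The spread within genotypes was at the 30.6 percentile of all genes.

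Cdk4 (chr10:127063534-127067920, plus strand), one of the kinases that D cyclins activate, had 200, 74.1 and 114 CPM in G643W libraries 1 to 3, against 151, 243 and 197 CPM in WT libraries 1 to 3. G643W libraries 2 and 3 were the lowest of the 6, while G643W library 1 was above 2 of the WT libraries. The log2 difference was -0.61 (SE 0.39, 95% interval -1.52 to 0.31, adjusted p 0.585 by edgeR), with a range from -0.98 (adjusted p 0.163) without G643W library 1 to -0.33 (adjusted p 0.960) without G643W library 2. Binding at the E-boxes of the Cdk4 window was not measured. Myc, whose protein can bind that sequence, was set beside Cdk4 after its values had been seen. It had 160, 12.3 and 51.0 CPM in G643W libraries, against 117, 148 and 122 CPM in WT libraries, and was lowest in the same library as Cdk4 (log2 difference -0.79, adjusted p 0.695 by edgeR). A link between these levels was not tested. Cdk4 overlaps Tspan31 on the opposite strand, which had 2780, 1239 and 2181 reads in G643W and 4593, 5300 and 2893 reads in WT, and reads of the shared end cannot be told apart.

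Cdk6 (chr5:3341485-3531008, plus strand), the other D cyclin kinase and one known for restraining myeloid maturation, had 414, 71.1 and 161 CPM in G643W libraries 1 to 3, against 145, 284 and 258 CPM in WT libraries 1 to 3. G643W held both the highest and the lowest library, a 5.82-fold range. The log2 difference was -0.09 (SE 0.61, 95% interval -1.53 to 1.35, adjusted p 0.960 by edgeR), and it was 0.32 without G643W library 2.

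The inhibitors did not separate by genotype in level. Cdkn1b (chr6:134920401-134925513, plus strand) had 50.6, 101 and 79.5 CPM in G643W libraries 1 to 3, against 78.8, 94.7 and 59.3 CPM in WT libraries 1 to 3. Its means were 77.1 ± 25.3 CPM in G643W and 77.6 ± 17.7 CPM in WT (SD, n = 3 each), and the log2 difference was -0.01 (95% interval -0.74 to 0.72, adjusted p 0.992 by edgeR). Cdkn2c (chr4:109660876-109667189, minus strand) had 22.9, 59.0 and 32.0 CPM in G643W, against 52.4, 22.5 and 23.7 CPM in WT. One library of each genotype, G643W library 2 and WT library 1, stood above the rest. The log2 difference was 0.21 (95% interval -0.89 to 1.31, adjusted p 0.873 by edgeR) and -0.25 without G643W library 2.

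**Figure D3:**
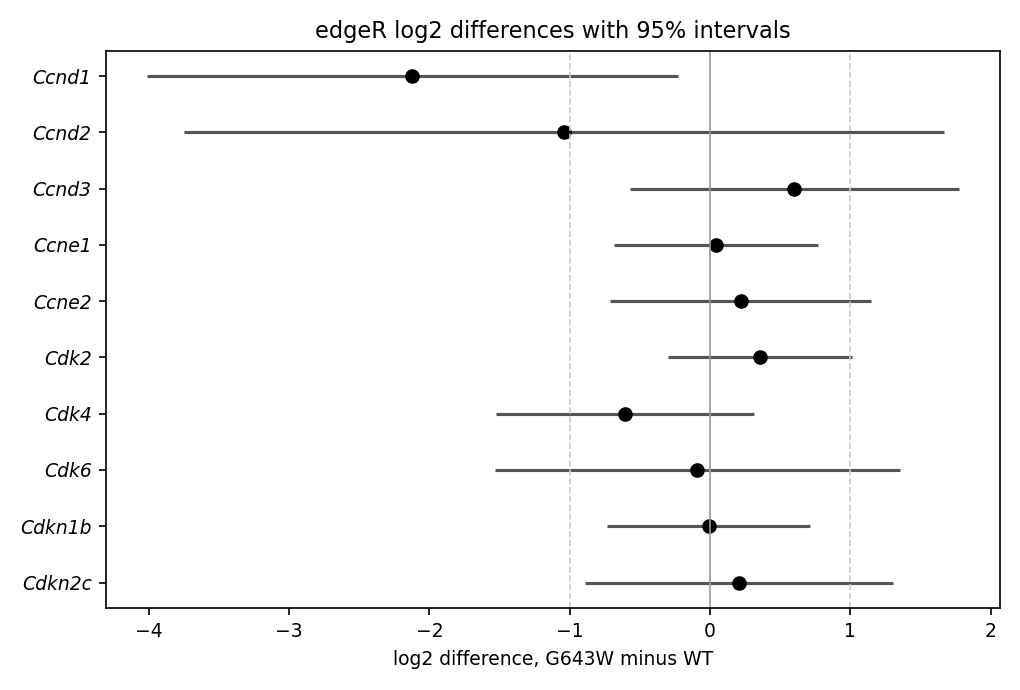
Log2 difference of each gene, G643W minus WT, from edgeR (points) with 95% intervals (lines), with dashed lines at -1 and 1. The interval of Ccnd1 (-4.01 to -0.23) is the one that does not include 0 before adjustment over all genes, and those of Ccne1 and Cdkn1b stay between the dashed lines.

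Over the 10 members the median log2 difference was 0.02, against -0.01 over all 20654 genes. No member had every G643W library above every WT library, as 7.05% of all genes had, and the groups overlapped for 9 members. The members were thus close to the background in these counts.

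Libraries of the same genotype differed from each other. Within G643W, library 2 was the highest or the lowest of the 3 libraries for all 10 members, highest for 6 and lowest for Ccnd1, Ccnd2, Cdk4 and Cdk6, as it was for 70.2% of all genes tested. Library 1 was at the opposite end for 8 of the 10 and for 53.5% of all genes. Within WT, library 3 was the highest for 6 members and for 6835 of the 20654 genes tested. Library 1 of WT was the lowest for 6 members and for 7279 of the genes tested. The relative level of Cdk6 (log2 CPM minus the mean of the 6 libraries) was 1.11 in library 1, -1.43 in library 2 and -0.26 in library 3 of G643W.

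Marker levels also differed between these libraries. The mean relative log2 CPM of 14 neutrophil markers was -1.90, 2.66 and 1.92 in G643W libraries 1 to 3, against -2.77, -1.13 and 1.22 in WT libraries 1 to 3. That of 10 progenitor and blast markers (Kit, Cd34, Mpo and others) was 0.82, -1.90 and -0.60 in G643W, against -0.01, 0.96 and 0.73 in WT, and no marker of either list passed the test. G643W library 2, with the lowest Ccnd1, Cdk4 and Cdk6 levels, thus had the highest neutrophil and the lowest progenitor markers. Elsewhere Ccnd1 and Ccnd2 did not follow the neutrophil order, and Cdk4 and Cdk6 followed it within G643W but not within WT. G643W library 3, with the next highest neutrophil mean, had the highest Ccnd1 and Ccnd2 levels of that genotype (28.1 and 38.2 CPM). Within WT, library 3, with the most neutrophil signal of that genotype, had the highest Ccnd1 and Ccnd2 levels, and library 1, with the least, had the lowest. WT library 1 also had the lowest Cdk4 and Cdk6 levels of that genotype (151 and 145 CPM), and WT library 2 the highest (243 and 284 CPM). The progenitor mean was likewise lowest in library 1 and highest in library 2 of WT. In RNA from a sorted bulk sample, fewer cells of a type and less RNA per cell cannot be told apart. With the neutrophil mean as a covariate, the log2 difference of Ccnd1 was -2.33, that of Cdk4 -0.47 and that of Cdk6 -0.02, and none passed the test.

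**Figure D4:**
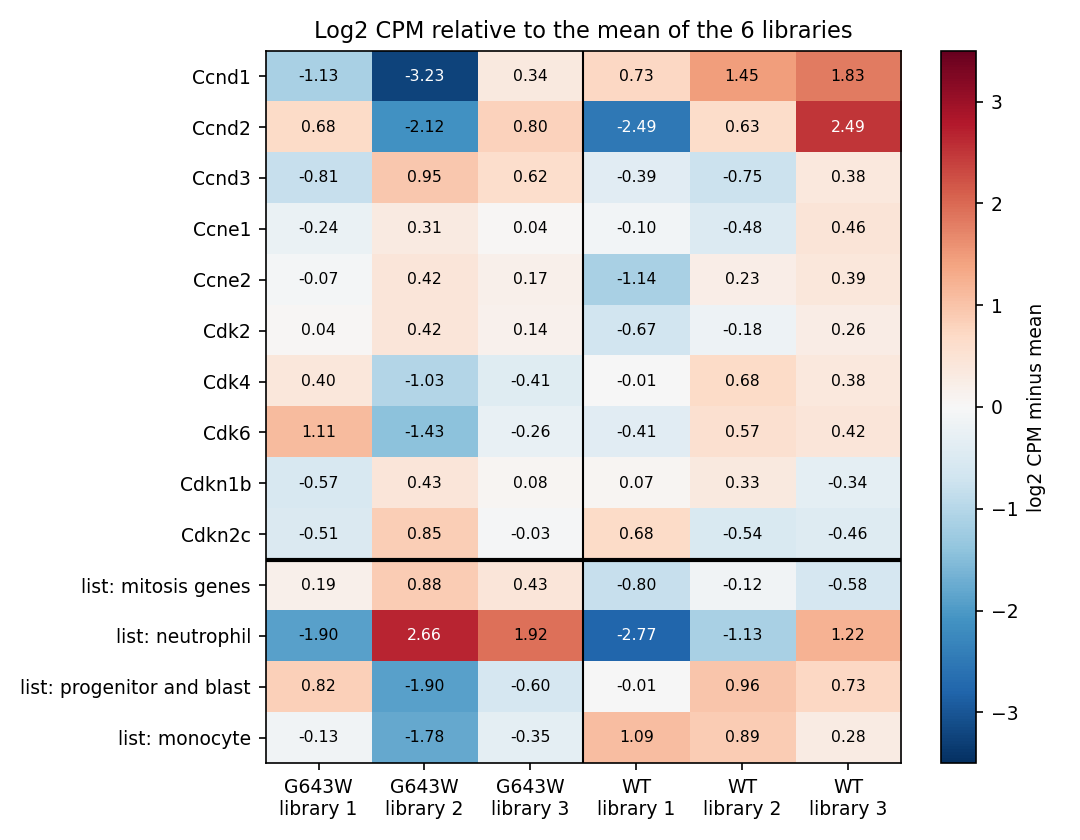
Log2 CPM of each gene minus its mean over the 6 libraries (upper 10 rows), and the same quantity averaged over 4 gene lists (lower rows), with G643W libraries on the left. G643W library 2 is low for Ccnd1 (-3.23), Ccnd2 (-2.12), Cdk4 (-1.03) and Cdk6 (-1.43) where the neutrophil list is at 2.66 and the progenitor list at -1.90.

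A separate measure was which transcript of a gene held its reads. The share of a gene's reads on its transcript with the most reads was compared for 8610 genes with at least 200 reads in every library, all 10 members among them, by limma on log2 odds, a test added after the data had been seen. No member passed it, and 7 genes did (0.0813%). Every G643W library was below every WT library for 3 members, Cdkn2c, Ccne2 and Ccnd3, and for 12.6% of all genes. The reverse held for none of the members and 5.83% of all genes.

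For Cdkn2c the libraries of a genotype lay close together. Its longer transcript, Cdkn2c-202 of 2471 bases, held 66.2%, 68.1% and 67.0% of the gene's reads in G643W libraries 1 to 3, against 75.5%, 74.5% and 75.4% in WT libraries 1 to 3. The means were 67.1 ± 0.950% in G643W and 75.2 ± 0.573% in WT (SD, n = 3 each), although the level of the gene ranged over 2.62-fold among the libraries. The log2 odds differed by -0.57 (SE 0.14, unadjusted p 0.00827, adjusted p 0.336 by limma over 8610 genes). The gene was singled out after its shares had been seen.

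The rest of the reads of Cdkn2c belonged to Cdkn2c-201 of 1106 bases, which held 33.8%, 31.9% and 33.0% in G643W and 24.5%, 25.5% and 24.6% in WT. Per length, Cdkn2c-201 was the more abundant transcript in every library. It took 64.4%, 62.0% and 63.0% of the gene's TPM in G643W libraries 1 to 3, against 54.3%, 55.7% and 53.3% in WT libraries 1 to 3. Both transcripts are annotated with the same 504 coding bases, so the protein is the same. Cdkn2c-202 begins at base 109667189 of chromosome 4 with a first exon of 1580 bases (chr4:109665610-109667189), and Cdkn2c-201 begins 1817 bases further along the gene, at base 109665372. The inner window printed above ends with the first 50 bases of Cdkn2c-201, and the outer window lies around a RefSeq start inside the first exon of Cdkn2c-202. All 215 bases that only Cdkn2c-201 holds lie in an intron of Cdkn2c-202, so reads of unspliced RNA would be assigned to it. Transcripts annotated as retained introns took 5.39% to 6.61% of all reads in G643W libraries, against 5.70% to 6.42% in WT libraries, and the part of unspliced RNA in the Cdkn2c shares was not tested.

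Ccne2-202, the main transcript of Ccne2, held 82.2%, 87.1% and 83.2% of the gene's reads in G643W libraries 1 to 3, against 89.9%, 92.8% and 91.0% in WT libraries 1 to 3. Ccne2-201 held 15.0%, 7.56% and 11.3% in G643W, against 3.64%, 3.28% and 6.01% in WT. Ccne2-207 held 0%, 1.95% and 4.69% in G643W, against 6.22%, 3.65% and 0% in WT, more than Ccne2-201 in WT libraries 1 and 2. The log2 odds of Ccne2-202 differed by -0.97 (SE 0.24, adjusted p 0.332 by limma). The transcripts have 1212 coding bases (Ccne2-202) and 1209 coding bases (Ccne2-201), which differ in where exon 3 begins. Ccne2-201 also has the longer last exon, and the last exon of either transcript lies within the span of Ints8. Ccnd3-205 held 77.9%, 77.6% and 77.1% of the reads of Ccnd3 in G643W, against 78.2%, 80.1% and 80.2% in WT, a gap smaller than 1 percentage point between the nearest libraries.

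**Figure D5:**
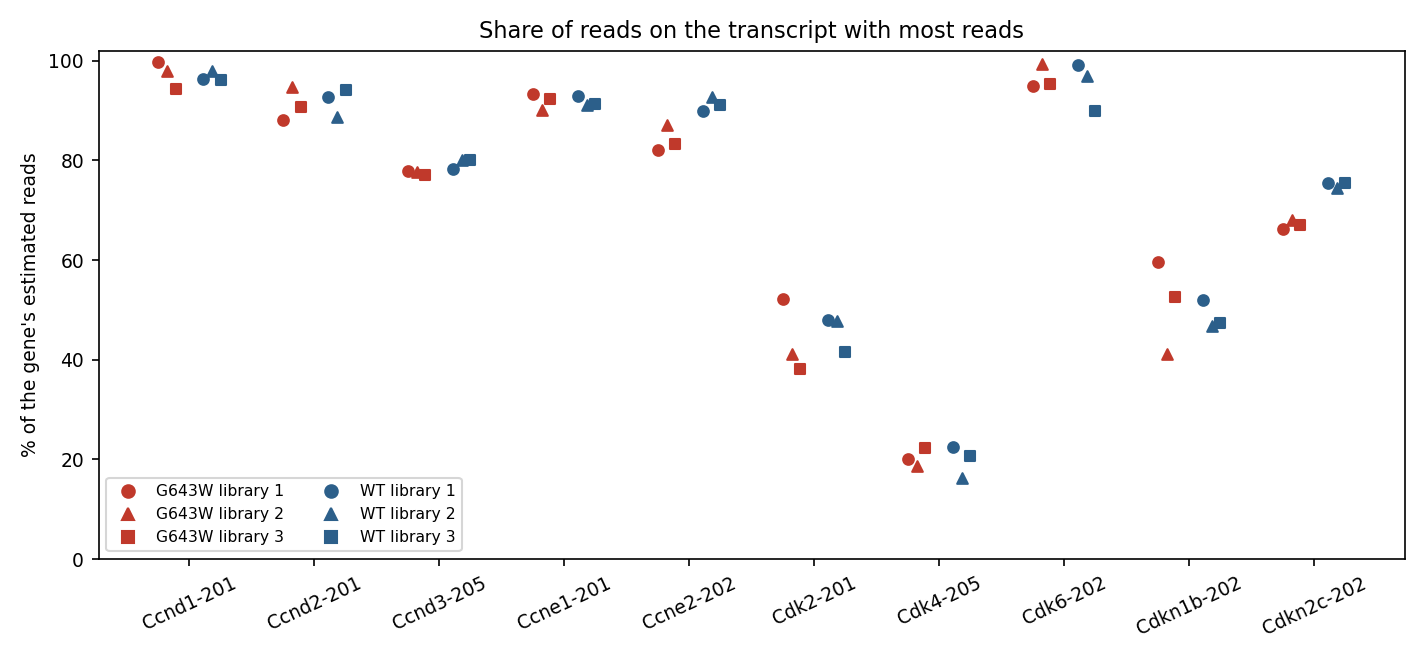
Share of each gene's estimated reads on its transcript with the most reads, in percent, per library, with G643W in red on the left and WT in blue on the right. The 3 G643W points of Cdkn2c-202 (66.2% to 68.1%) lie below the 3 WT points (74.5% to 75.5%), and those of Ccne2-202 and Ccnd3-205 also lie below theirs.

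The other genes of the pathway were read from lists, and no gene of any list passed the test. Of 5 other inhibitors of cyclin-dependent kinases, 3 had a positive log2 difference. The lowest p was that of Cdkn1a (p21Cip1, a p53 target), which had 27.4, 34.2 and 31.6 CPM in G643W, against 99.2, 27.8 and 53.8 CPM in WT (log2 difference -0.96, adjusted p 0.530 by edgeR). The groups overlapped through WT library 2. Of 15 genes of the ubiquitin ligases that degrade G1 regulators, 10 were negative, with a median of -0.10.

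Of the retinoblastoma family and E2F factors, 8 of 13 were positive, with a median of 0.08. Every G643W library was above every WT library for 3 of the 13, Rbl1 among them, against 7.05% of all genes. The reverse held for none of them, against 8.89% of all genes. Rbl1, the gene of the pocket protein p107, had 103, 112 and 111 CPM in G643W, against 56.9, 51.4 and 60.7 CPM in WT. The groups were far apart against their spread, with a log2 difference of 0.95 (SE 0.18), and yet the adjusted p was 0.239 by edgeR. The S phase targets of E2F, 22 genes, had a median of 0.06, with 15 positive. None had groups without overlap, beside the same 7.05% and 8.89% of all genes.

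Genes of the next phases had higher medians. All 5 of the later cyclins and kinases that were tested were positive, with a median of 0.87, among them Ccna2, cyclin A of S phase and G2, with 123, 252 and 168 CPM in G643W, against 70.0, 119 and 85.2 CPM in WT (log2 difference 0.98, adjusted p 0.493 by edgeR). Of 30 mitosis genes, 30 were positive, with a median of 0.99, and 24 had every G643W library above every WT library, against 7.05% of all genes. Of the 5 later cyclins and kinases, 3 are also in this list. The lowest p was that of Cenpe, a kinetochore motor, with 99.7, 149 and 132 CPM in G643W, against 45.0, 58.3 and 48.9 CPM in WT (log2 difference 1.32, adjusted p 0.200 by edgeR). These medians stand beside 0.02 for the 10 G1 members and -0.01 for all genes, and the difference between lists was not tested. The lists were chosen with earlier results of these data known, and genes of a list can vary together. The counts are therefore a description of these libraries alone.

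Of 9 genes that activate cyclin-dependent kinases or that add or remove their inhibitory phosphate, 5 were positive. Cdc25c, a phosphatase of the entry into mitosis, had the lowest p. It had 14.6, 29.8 and 20.3 CPM in G643W, against 7.45, 11.1 and 7.25 CPM in WT (log2 difference 1.32, adjusted p 0.454 by edgeR). Of 19 genes that carry mitogen, Myc, TGF-beta and FoxO input to G1, 10 were positive. Id1, an inhibitor of basic helix-loop-helix factors, had 41.7, 51.2 and 40.6 CPM in G643W, against 7.45, 7.09 and 16.6 CPM in WT (log2 difference 2.10, SE 0.38, adjusted p 0.230 by edgeR). It too was apart between the genotypes in every library and did not pass the test over all genes.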

How the data were processed

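The authors quantified reads with Salmon 0.12.0 after bcl2fastq, with mm10 and GRCm38.p6 as builds, per the submitters' processing notes. No source used here gives the Salmon options, the transcript index or the use of strand. The authors deposited, per the file headers, estimated counts of reads and TPM per transcript. TPM is scaled to effective length and library total. Salmon divides reads shared by transcripts with a statistical model, so transcript shares are estimates.

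Of 136288 transcripts, 136176 were in GENCODE M21 (GRCm38), which gave gene names and coordinates. Estimated counts were summed over 53458 genes and rounded. After filterByExpr (minimum count 10) and TMM scaling, genotype was tested two-sided by glmQLFit and glmQLFTest of edgeR 4.0.16 (R 4.3.3), with a threshold of 0.05 after Benjamini-Hochberg adjustment. All 10 members passed the filter. Standard errors are the log2 difference divided by the square root of F, and list levels use log2 CPM with a prior count of 2. Every pair of libraries differed by more than sampling noise. At 61167075 to 101189225 reads a library, members had 211 reads or more.

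Transcript shares were tested with limma 3.58.1 (0.5 reads added to each side). BLAST 2.17.0 served to find near-identical copies. Named genes were the members, the gene with the lowest p of each pathway list, and overlapping genes or copies; Ubac1 and Rrm2, which the rule also gave, had adjusted p of 0.561 and 0.579 (edgeR). Myc was added. Members and lists were chosen with earlier results of these data known. Procedures were tested on simulated data. Alternatives were other scaling, filters, counts and genes, DESeq2 1.42.0, limma on log2(TPM + 1) and log2(TPM + 0.1), a replicate block, a neutrophil covariate, summed copies and each library left out.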

Additional observations from a re-analysis of the deposited data

How the results depend on the processing

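No member was called in the main analysis or in any of 17 alternatives, where the lowest adjusted p was 0.161 (Ccnd1, DESeq2). The number of genes called, 25 in the main analysis, was 16 with no scaling factor, 104 with no filter, 10 with length-scaled counts, 427 with DESeq2, 43 with limma on log2(TPM + 0.1) and 2 among protein-coding genes alone, and ranged from 0 to 16 with each library left out. The cause of these differences was not tested. With the replicate number as a replicate block it was 0, with 1772 genes at an unadjusted p under 0.05. Deviations of same-numbered libraries correlated at 0.11, -0.16 and 0.18, and those of differently numbered libraries at -0.28 to 0.23. The deviations were taken from means of 3 libraries, which constrains these values. They thus show no pairing by number but cannot decide whether same-numbered libraries share a batch. Ccnd1 (-3.24 to -1.62), Cdk2 (0.15 to 0.69) and Cdk4 (-0.98 to -0.33) kept their sign in all 17. With the neutrophil covariate Ccnd3 was -0.078, Ccne1 -0.17 and Ccne2 -0.038, and Ccne1 was -0.015 with no scaling factor. Cdkn1b was 0.014 with median-ratio scaling and with DESeq2, 0.022 with length-scaled counts, 0.0074 and 0.0057 with limma on log2(TPM + 1) and log2(TPM + 0.1) and 0.091 among protein-coding genes. With each library left out, Ccnd2 ranged from -1.60 to 0.52, Ccnd3 from 0.25 to 1.08, Ccne1 from -0.11 to 0.41, Ccne2 from -0.13 to 0.57, Cdk6 from -0.90 to 0.32, Cdkn1b from -0.25 to 0.31 and Cdkn2c from -0.25 to 0.71. By transcript share no member was called under any of 8 alternatives chosen after seeing the data, and the log2 odds difference of Cdkn2c-202 ranged from -0.60 to -0.54 with each library left out. The effect of depth was not tested.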
